A study of Mus musculus with 6 samples.

Results

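The nuclear pore and its transport receptors were followed at the RNA level in mouse lungs that carried a hairpin against Thoc1. The genes were picked by symbol: rows for nucleoporins, importins, exportins, karyopherins and transportins, with Tpr, Rae1, Ranbp2, Ndc1, Pom121, Seh1l, Sec13, Aaas, Eny2, Pcid2 and Mcm3ap, and without the readthrough record Ipo11-lrrc70. The rule found 59 of the 19639 genes in the table, and 57 of the 59 had enough counts to be tested. Kpna7, an importin alpha that is known from oocytes and early embryos, had 2, 0 and 0 counts in shThoc1 replicates 1, 2 and 3 and 0 in each shControl library. Nup50l had 0 or 1 count in each of the 6 libraries.

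RNA sequencing libraries came from the lungs of RPM mice, a name used for a small cell lung cancer model that loses Rb1 and Trp53 and switches on a Myc transgene. Per the labels, 3 libraries came from mice given lentivirus with a hairpin against Thoc1 (shThoc1) and 3 from mice given a control hairpin (shControl), so both groups share the RPM background and a lentivirus. Age, the Cre that recombined the alleles, the promoter of the hairpin and the cells the virus entered are not stated in the sources at hand. The labels do not say whether replicates are separate animals, so p-values reflect only how much these samples vary, and that variation may be technical.

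The nuclear pore complex is a ring-shaped gate in the nuclear envelope. Outer and inner rings form its scaffold, membrane nucleoporins anchor it, and nucleoporins with phenylalanine-glycine repeats fill the channel. Importins and exportins carry proteins, transfer RNA and small RNA precursors through it, with the GTPase Ran setting the direction. Messenger RNA leaves by another carrier, which is loaded with the help of the TREX complex, of which Thoc1 is a subunit, and of TREX-2 at the nuclear basket of the pore.

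The libraries held 9934583 (shThoc1 replicate 2) to 15025199 counts (shThoc1 replicate 1). Thoc1 itself was at 61.4 ± 8.08 CPM (counts scaled to the size of the library) in shThoc1 and 83.9 ± 3.18 CPM in shControl (SD, n = 3 each), a log2 fold change of −0.45 (SE 0.17, edgeR adjusted p = 0.304), or −0.61 without shThoc1 replicate 2 (edgeR adjusted p = 0.0719), and its groups did not overlap. Permuting the labels of Thoc1 over the 20 possible assignments (exact, two-sided) gave p = 0.1, the smallest that 3 against 3 libraries allow. The library labelled shThoc1 replicate 2 stood apart in its tissue markers. The 8 alveolar type 2 markers summed to 724 CPM there, against 6751 to 22380 CPM in the other 5 libraries, although none was at 0. The 8 endothelial markers summed to 304 CPM against 1097 to 4308 CPM, and the 7 alveolar type 1 markers to 327 CPM against 1453 to 5246 CPM. In the opposite direction, 10 T cell markers summed to 1283 CPM against 59.1 to 133 CPM and 7 adipocyte markers to 1851 CPM against 67.5 to 162 CPM. Whether shThoc1 replicate 2 is the same kind of lung sample as the other 5 was not tested. For most of the named genes the fold change without this library is given beside that with all 6. The groups still differ in tissue markers without it. On the alveolar type 2 list shThoc1 replicates 1 and 3 summed to 22380 and 20990 CPM, against 6751, 16230 and 7311 CPM in shControl. Their endothelial sums were 4308 and 3333 CPM, against 1216, 1943 and 1097 CPM, and their alveolar type 1 sums lay above every control too. The library labelled shControl replicate 2 also stood apart: its 8 fibroblast markers summed to 6118 CPM, against 976.5 to 2249 CPM in the other 5 libraries. Without shControl replicate 2 the median log2 fold change of the tested transport genes was −0.66. In bulk tissue, fewer cells of a type and less RNA per cell cannot be told apart.

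Most transport genes had lower counts in shThoc1 lungs, and none of them passed the test over all genes. Of the 57 tested, 51 had a log2 fold change below 0, against 47.9% of all genes tested. The median was −0.52, against 0.03 over all genes, and single values ran from −1.39 to 0.50. With edgeR 0 genes were called, as over the whole table (0% of 15287 genes), and the adjusted p-values of the 57 ran from 0.304 to 0.984. At an unadjusted p under 0.05 there were 19 lower genes, against a background of 9.24%, and 0 higher ones, against 6.93%. That count of lower genes changed with the library left out. It was 5, 40 and 3 without shThoc1 replicate 1, 2 or 3, and 6, 19 and 4 without shControl replicate 1, 2 or 3. Without shThoc1 replicate 2 the share over all genes was 21.2%, and it was not computed for the other fits. Each fit also has fewer libraries, so whether a smaller count is particular to these genes was not tested. Their median stayed between −0.77 and −0.43 in these fits, with 47 to 52 of the 57 below 0. The groups did not overlap for 18 lower genes, against 10.5% of all genes, and for 1 higher gene, against 11.1%. According to the authors' deposited table, 4 of them, Ipo11, Ipo4, Ipo9 and Eny2, have an adjusted p under 0.05, all lower, where 3.69% of all genes with an adjusted p are called lower and 2.04% higher. A DESeq2 fit of the same counts called the same 4, against a background of 3.82% lower and 2.12% higher. Limma voom with sample quality weights gave shThoc1 replicate 2 the smallest weight. It called 43 of the 57 lower, against a background of 24.2% called lower and 20.4% higher.

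**Figure D1:**
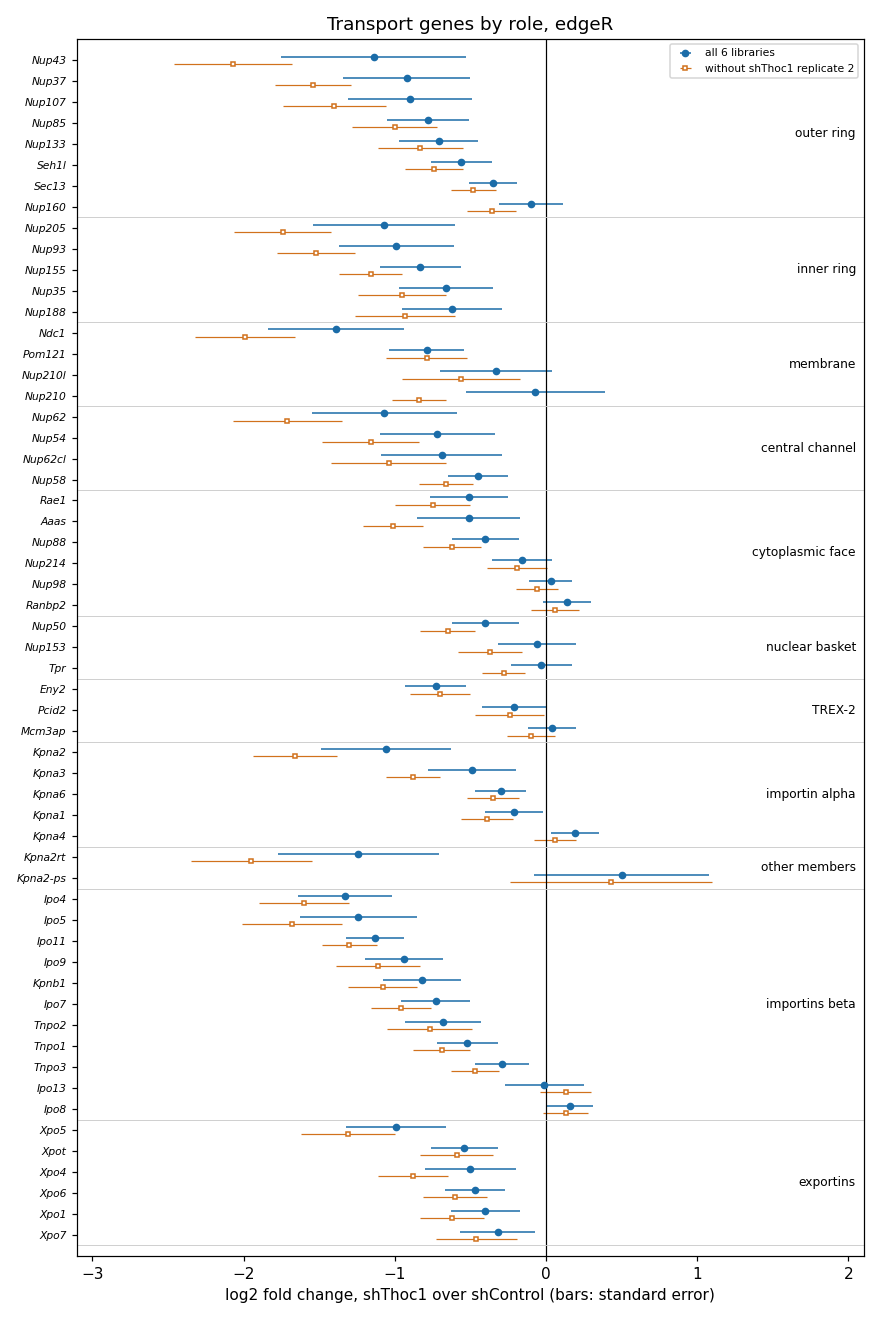
Log2 fold change of shThoc1 over shControl (x axis) for each of the 57 tested genes (y axis, grouped by role), with the standard error as bars, from all 6 libraries (filled circles) and without shThoc1 replicate 2 (open squares). Of the 57 genes, 51 lie below 0 with all libraries and 52 without that replicate.

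Within each group the level differed between libraries. The median over the 57 genes was 5.64, 6.00 and 5.62 log2(CPM + 0.5) in shThoc1 replicates 1, 2 and 3, and 6.45, 5.96 and 6.31 in shControl replicates 1, 2 and 3. The groups overlapped, since shThoc1 replicate 2 lay above shControl replicate 2. That order between these 2 libraries held for 36 of the 57 genes, against 50.0% of all genes tested. The lowest library was shThoc1 replicate 1 for 27 genes and shThoc1 replicate 3 for 16. The highest was shControl replicate 1 for 28 and shControl replicate 3 for 16. The same counts over all genes were not made. Without shThoc1 replicate 2 the median over the 57 genes was −0.77, and 54 of the 57 had a more negative fold change than with it. The share over all genes was not computed for that count. Over all genes the median was −0.06 in this fit, against 0.03 with all 6 libraries. In that fit 52 of 57 were below 0, against 53.2% of all genes, and 40 had an unadjusted p under 0.05 and a lower level, against 21.2%. Ipo11 was the 1 gene called in it (0.933% of all genes were called lower and 0.716% higher).

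Transcripts of dividing cells were low in the same libraries as the transport genes. All 22 markers of G2 and mitosis were below 0, and their median level was 2.08, 5.13 and 3.15 log2(CPM + 0.5) in shThoc1 replicates 1, 2 and 3, against 6.46, 5.52 and 6.25 in shControl replicates 1, 2 and 3. Their sum ran from 115 to 1116 CPM in shThoc1 and from 1246 to 2487 CPM in shControl. All 21 S phase genes were below 0 too, at 424, 1359 and 502 CPM in sum in the shThoc1 libraries and 2344, 1163 and 2053 CPM in the shControl libraries. The 16 neuroendocrine markers, all below 0, summed to 28.8, 358 and 31.4 CPM in shThoc1 replicates 1, 2 and 3 and to 1034, 124 and 1084 CPM in shControl replicates 1, 2 and 3, with Dll3 at 0 in shThoc1 replicate 1. As with the transport genes, shThoc1 replicates 1 and 3 were the 2 lowest libraries and shControl replicates 1 and 3 the 2 highest on each of these lists. The part of dividing or neuroendocrine cells in the values of the transport genes was not tested.

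**Figure D2:**
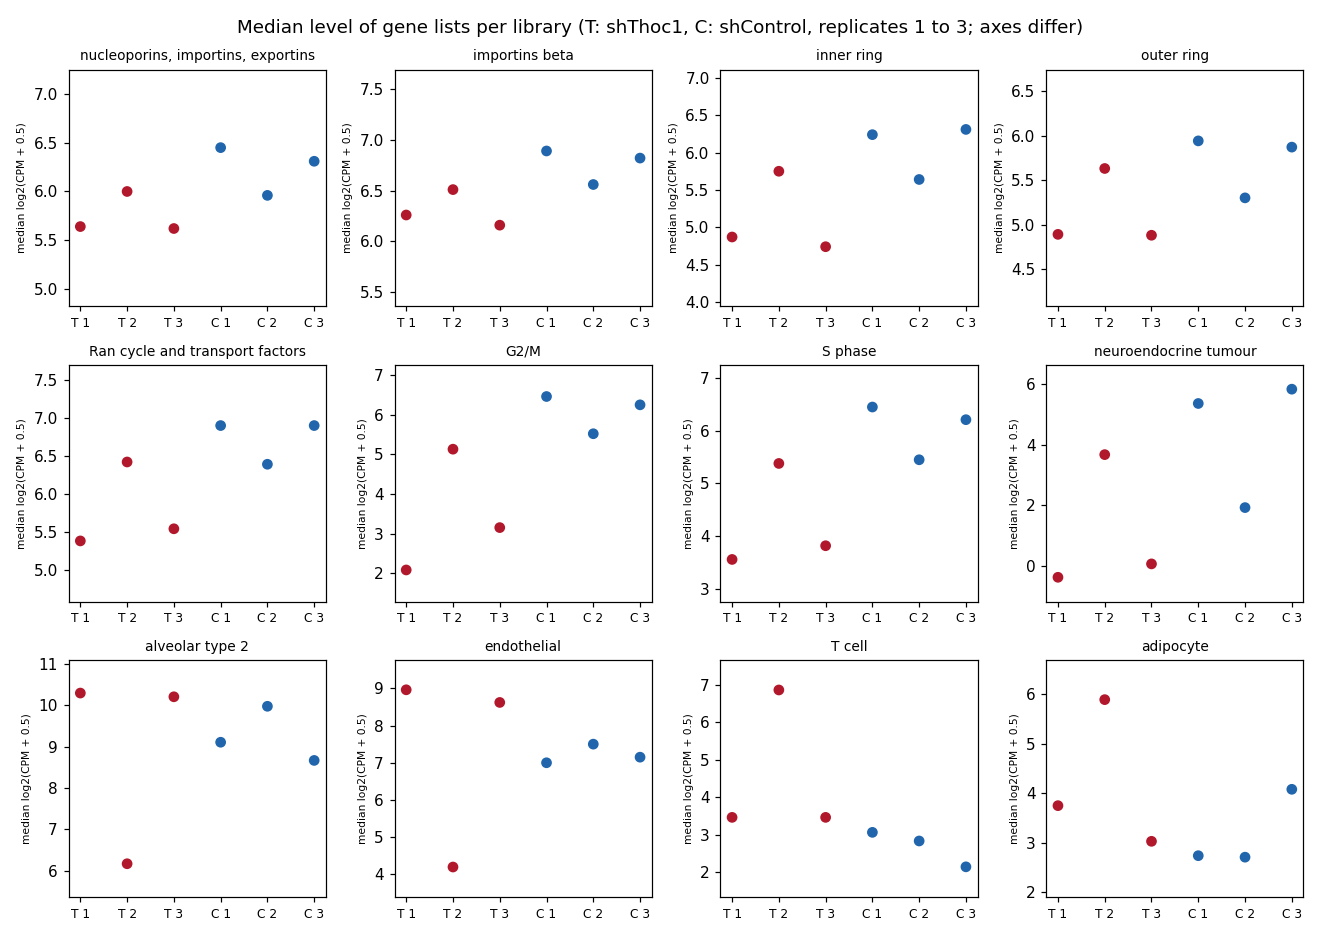
Median log2(CPM + 0.5) of gene lists (y axes, which differ between panels) in each library (x axes: T 1 to T 3 are shThoc1 replicates 1 to 3, C 1 to C 3 are shControl replicates 1 to 3). On the transport genes and on the G2/M list shThoc1 replicate 2 lies above the other 2 shThoc1 libraries, and on the alveolar type 2 list it is the lowest of the 6, at 6.17.

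The import receptors of the importin beta family, which carry cargo through the pore themselves, were mostly separated between the groups. Of 11 tested, 10 were below 0, with a median of −0.73, and 8 were lower in shThoc1 without overlap between the groups, against 10.5% of all genes. Summed over the family the level was 1013, 1360 and 1077 CPM in shThoc1 replicates 1, 2 and 3, against 2153, 1521 and 2122 CPM in shControl replicates 1, 2 and 3. In 1 of the 11 the level in shThoc1 replicate 2 exceeded that in shControl replicate 2. Without shThoc1 replicate 2 the median was −0.96, with 9 of 11 below 0.

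Ipo11, an import receptor, had 29.2, 38.6 and 33.5 CPM in shThoc1 replicates 1, 2 and 3, against 65.5, 82.1 and 73.5 CPM in shControl replicates 1, 2 and 3. Every shThoc1 library was well below every control, and shControl replicate 2, which was low for most transport genes, was the highest here. The mean was 45.8% of the control level, with a log2 fold change of −1.13 (SE 0.19, edgeR adjusted p = 0.304). Without shThoc1 replicate 2 it was −1.30 (edgeR adjusted p = 0.0488), and the authors' deposited table gives −1.15 (SE 0.22, adjusted p = 4.87e-05). The readthrough record Ipo11-lrrc70 has the same 6 counts, so reads of Ipo11 and of the readthrough transcript cannot be told apart in this table. Ipo11 was the 1 member above the lowest counts whose 6 counts matched another record.

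Ipo4 and Ipo9, import receptors for histones among other cargo, followed. Ipo4 had 21.4, 34.1 and 25.2 CPM in shThoc1 replicates 1, 2 and 3, against 84.9, 45.9 and 71.7 CPM in shControl replicates 1, 2 and 3. Its log2 fold change was −1.33 (SE 0.31, edgeR adjusted p = 0.304), and −1.60 without shThoc1 replicate 2 (edgeR adjusted p = 0.0565). The authors' deposited table gives Ipo4 an adjusted p of 0.00963. The groups did not overlap, although the controls differed more among themselves than the shThoc1 libraries did. Ipo9 had 76.3, 90.9 and 71.2 CPM in shThoc1, against 193, 106 and 158 CPM in shControl (log2 fold change −0.94, SE 0.26, and −1.11 without shThoc1 replicate 2). It was called in the authors' deposited table (adjusted p = 0.0422) and not by edgeR (adjusted p = 0.304).

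Kpnb1, the beta partner of the importin alpha adaptors, had the highest mean CPM of all 59. It was at 220, 323 and 230 CPM in shThoc1 replicates 1, 2 and 3, against 510, 353 and 499 CPM in shControl replicates 1, 2 and 3, a log2 fold change of −0.82 (SE 0.26, edgeR adjusted p = 0.304) that was −1.08 without shThoc1 replicate 2. The groups did not overlap, but shThoc1 replicate 2 and shControl replicate 2 lay close to each other. Ipo5 and Ipo7, receptors for ribosomal proteins among others, and Tnpo1 and Tnpo2, the transportins of several RNA-binding proteins, were likewise lower without overlap. The log2 fold changes of Ipo5, Ipo7, Tnpo1 and Tnpo2 were −1.24, −0.73, −0.52 and −0.68, none past the test (edgeR adjusted p = 0.304 for each), and −1.68, −0.96, −0.69 and −0.77 without shThoc1 replicate 2; these 4 were chosen for naming after their values were seen. Ipo8, a close relative of Ipo7, went the other way at 63.0, 60.1 and 68.2 CPM in shThoc1 replicates 1, 2 and 3 and 55.2, 61.1 and 55.1 CPM in shControl replicates 1, 2 and 3. The groups overlapped by 1 library in each, and the log2 fold change of Ipo8 was 0.16 (SE 0.15, edgeR adjusted p = 0.590), or 0.13 without shThoc1 replicate 2. Ipo13, which carries cargo in both directions and was also chosen after its values were seen, was at −0.01 (SE 0.26), and at 0.13 without shThoc1 replicate 2.

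**Figure D3:**
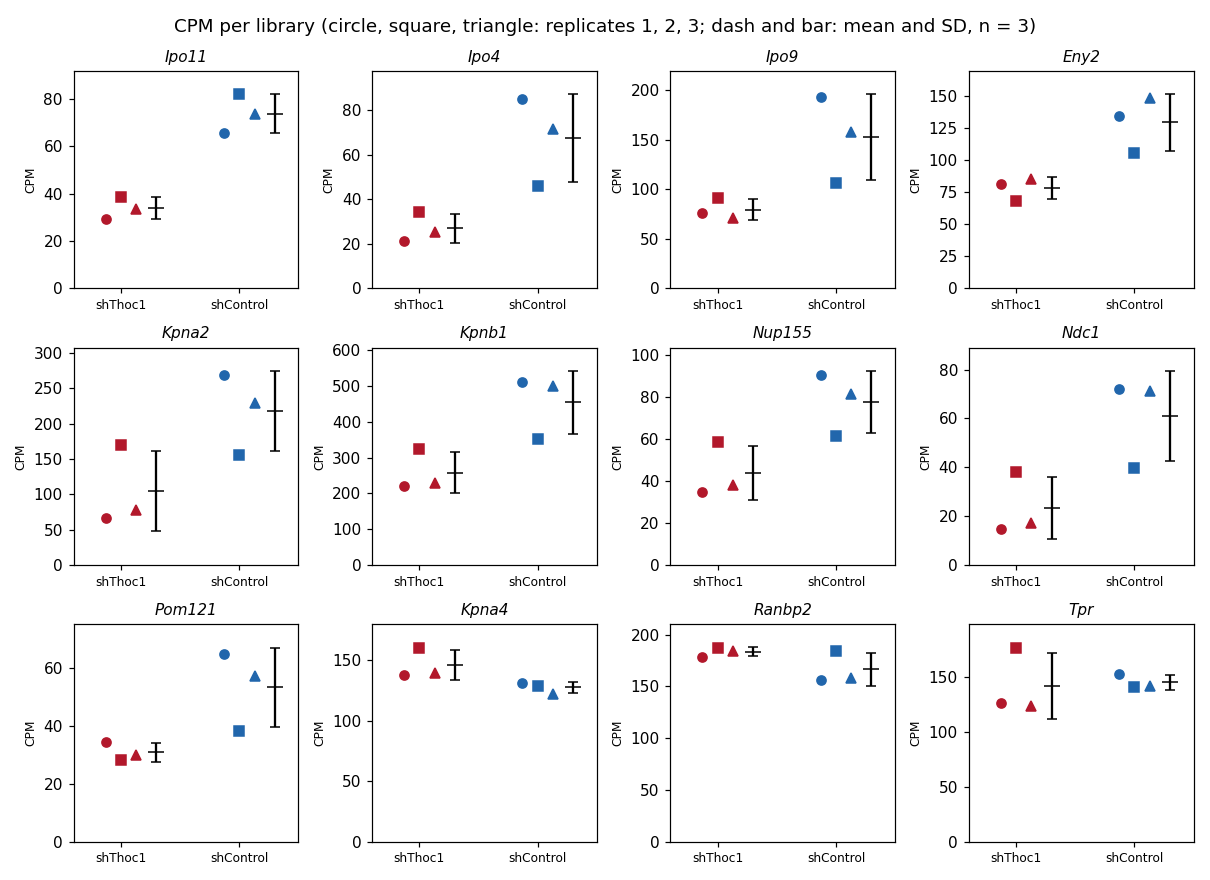
CPM (y axes, from 0) of 12 genes in each library (circle, square and triangle are replicates 1, 2 and 3), with shThoc1 left of shControl on the x axes and the mean and SD (n = 3) beside the points. Ipo11, Ipo4, Ipo9, Eny2, Kpnb1, Nup155, Ndc1 and Pom121 do not overlap between the groups and are lower in shThoc1, and Kpna4 does not overlap and is higher.

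The importin alpha adaptors bind the classical nuclear localisation signal and hand the cargo to Kpnb1. Of 5 tested, 4 were below 0, with a median of −0.30. Kpna2, the adaptor known to be abundant in dividing cells, had 66.7, 170 and 77.3 CPM in shThoc1 replicates 1, 2 and 3, against 268, 156 and 229 CPM in shControl replicates 1, 2 and 3. The groups overlapped, since shThoc1 replicate 2 was above shControl replicate 2. Its log2 fold change was −1.06 (SE 0.43, edgeR adjusted p = 0.307), and −1.66 without shThoc1 replicate 2 (edgeR adjusted p = 0.0530).

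Kpna4 was the 1 member that was higher in shThoc1 without overlap, against 11.1% of all genes. It had 138, 160 and 140 CPM in shThoc1 replicates 1, 2 and 3, against 131, 129 and 122 CPM in shControl replicates 1, 2 and 3. The shift was small, a log2 fold change of 0.19 (SE 0.16, edgeR adjusted p = 0.521) that came to 0.06 without shThoc1 replicate 2. Kpna3, the closest relative of Kpna4 in sequence, was at −0.49 (SE 0.29) and Kpna6 at −0.30 (SE 0.17), and at −0.88 and −0.35 without shThoc1 replicate 2. Kpna6 did not overlap between the groups, at 72.4, 70.0 and 74.3 CPM in shThoc1 and 102, 78.1 and 87.1 CPM in shControl. The copies of Kpna2 share its sequence, so their reads are uncertain. Kpna2rt had 2.64, 7.11 and 2.60 CPM in shThoc1 and 12.5, 6.53 and 10.1 CPM in shControl, with shThoc1 replicate 2 again above shControl replicate 2. The pseudogene Kpna2-ps stayed between 0.490 and 2.01 CPM in the 6 libraries, with a log2 fold change of 0.50 (SE 0.58, edgeR adjusted p = 0.651). Kpna2rt and Kpna2-ps were at −1.95 and 0.43 without shThoc1 replicate 2.

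The stretches before the annotated starts of 4 receptor genes are shown because they stand for the patterns above. Ipo11 and Ipo4 have the smallest p-values of all members, Kpna2 was highest in the controls where the dividing-cell markers were highest, and Kpna4 is the 1 that was higher without overlap. Each is the 250 bases before the start in RefSeq, 5′ to 3′ on the strand of the gene, from build GRCm38.p6, which is not the build of the counts. Capitals mark a CCAAT box (CCAAT or ATTGG) or the cell-cycle homology region CHR (TTTGAA or TTCAAA).
Ipo11, chr13:106936959-106937208, minus strand: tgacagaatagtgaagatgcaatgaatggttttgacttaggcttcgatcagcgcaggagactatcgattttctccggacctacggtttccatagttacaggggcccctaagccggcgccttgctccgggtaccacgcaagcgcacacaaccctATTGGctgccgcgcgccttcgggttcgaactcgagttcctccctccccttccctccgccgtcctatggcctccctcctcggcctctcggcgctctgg
Ipo4, chr14:55635685-55635934, minus strand: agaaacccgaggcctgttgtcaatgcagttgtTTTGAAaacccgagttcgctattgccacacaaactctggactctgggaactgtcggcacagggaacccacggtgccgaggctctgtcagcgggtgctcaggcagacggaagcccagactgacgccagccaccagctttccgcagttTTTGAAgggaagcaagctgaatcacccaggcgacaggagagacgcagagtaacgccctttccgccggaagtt
Kpna2, chr11:106999526-106999775, minus strand: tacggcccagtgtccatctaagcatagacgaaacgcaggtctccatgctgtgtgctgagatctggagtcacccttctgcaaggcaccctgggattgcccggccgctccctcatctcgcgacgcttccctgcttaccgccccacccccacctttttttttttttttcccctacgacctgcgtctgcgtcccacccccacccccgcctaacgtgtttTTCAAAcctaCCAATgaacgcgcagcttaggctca
Kpna4, chr3:69127093-69127342, minus strand: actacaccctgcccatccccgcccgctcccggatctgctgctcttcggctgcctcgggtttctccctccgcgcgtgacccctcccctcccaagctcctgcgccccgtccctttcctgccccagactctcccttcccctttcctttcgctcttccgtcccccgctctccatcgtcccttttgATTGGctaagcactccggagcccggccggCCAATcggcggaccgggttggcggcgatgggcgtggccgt

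The Kpna2 stretch holds a CHR that begins 35 bases before the start and a CCAAT box that begins 25 bases before it. The Ipo4 stretch holds 2 CHR runs, at 218 and 72 bases before the start, and no CCAAT box. The Ipo11 stretch holds 1 CCAAT box and the Kpna4 stretch 2, and neither holds a CHR. The table had 51 such windows for 44 of the 59 members, some of which overlap, searched on both strands. A CHR was in 12 of the 51 (23.5%), against 16% of all 32851 windows and 11.1% of the windows of tested genes. A CCAAT box was in 22 (43.1%), against 33.8% and 34.5%. The CHR and CCAAT counts include the window of Kpna7, which was not tested. They also include overlapping windows of Nup37 that hold the same runs. The E-box CACGTG was in 7 (13.7%), against 6.02% and 7.72%, and the palindromic NRF1 motif in 4 (7.84%), against 0.782% and 1.4%. E2F letters (TTTCCCGC, TTTGGCGC or TTTCGCGC) were in 1 (1.96%), against 1.53% and 2.57%. ETS letters (CCGGAAG) were in 10 (19.6%), against 6.91% and 11.9%, the GC box GGGCGG in 30 (58.8%), against 32.7% and 54.5%, and the CRE TGACGTCA in 2 (3.92%), against 1.55% and 2.36%. The YY1 motif was in 0, against 0.207% and 0.367%. A match is a run of letters in a window and does not show that a factor binds there.

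Compared per kilobase of the longest GENCODE transcript, a scale that allows genes to be set side by side, Kpna2 stood highest in shControl, with 51.0 ± 27.7 CPM per kilobase in shThoc1 and 106 ± 27.7 in shControl. Sec13, an outer ring gene named here after its values were seen, followed at 62.2 ± 5.11 and 79.0 ± 5.78 CPM per kilobase in shThoc1 and shControl, then Kpnb1 at 43.7 ± 9.66 and 77.0 ± 14.9 and Ipo5 at 31.0 ± 12.4 and 73.2 ± 22.9 (SD, n = 3 per group throughout). This order is that of shControl; in shThoc1 Sec13 lay above Kpna2, and Ipo7, at 39.9 ± 7.91, above Ipo5. In shControl each neighbour in it differed by less than the larger of the 2 SDs. At the lower end Nup210l, a relative of Nup210 known from testis, had 0.396 ± 0.0811 CPM per kilobase in shThoc1 and 0.498 ± 0.0869 in shControl. The lengths come from an annotation of another build, and which transcript these cells use is not known.

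The exportins take cargo out of the nucleus, and all 6 were below 0, with a median of −0.48. Xpo5, the exporter of microRNA precursors, had 45.7, 72.7 and 45.2 CPM in shThoc1 replicates 1, 2 and 3, against 127, 69.2 and 128 CPM in shControl replicates 1, 2 and 3. The groups overlapped because shThoc1 replicate 2 was above shControl replicate 2. The log2 fold change of Xpo5 was −0.99 (SE 0.33, edgeR adjusted p = 0.304), and −1.31 without shThoc1 replicate 2 (edgeR adjusted p = 0.0709). Xpot, the exporter of transfer RNA, did not overlap, at 95.6, 92.3 and 96.4 CPM in shThoc1 and 143, 104 and 167 CPM in shControl (log2 fold change −0.54, SE 0.22, edgeR adjusted p = 0.307). Xpo6, which exports actin, was at −0.47 (SE 0.20, edgeR adjusted p = 0.320). Leaving out shThoc1 replicate 2 gave −0.59 for Xpot, −0.60 for Xpo6 and a median of −0.61 for the 6 exportins. Xpo1, the exporter of proteins with a leucine-rich signal and chosen after its values were seen, was at 149, 228 and 186 CPM in shThoc1 and 263, 206 and 271 CPM in shControl, with overlap.

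**Figure D4:**
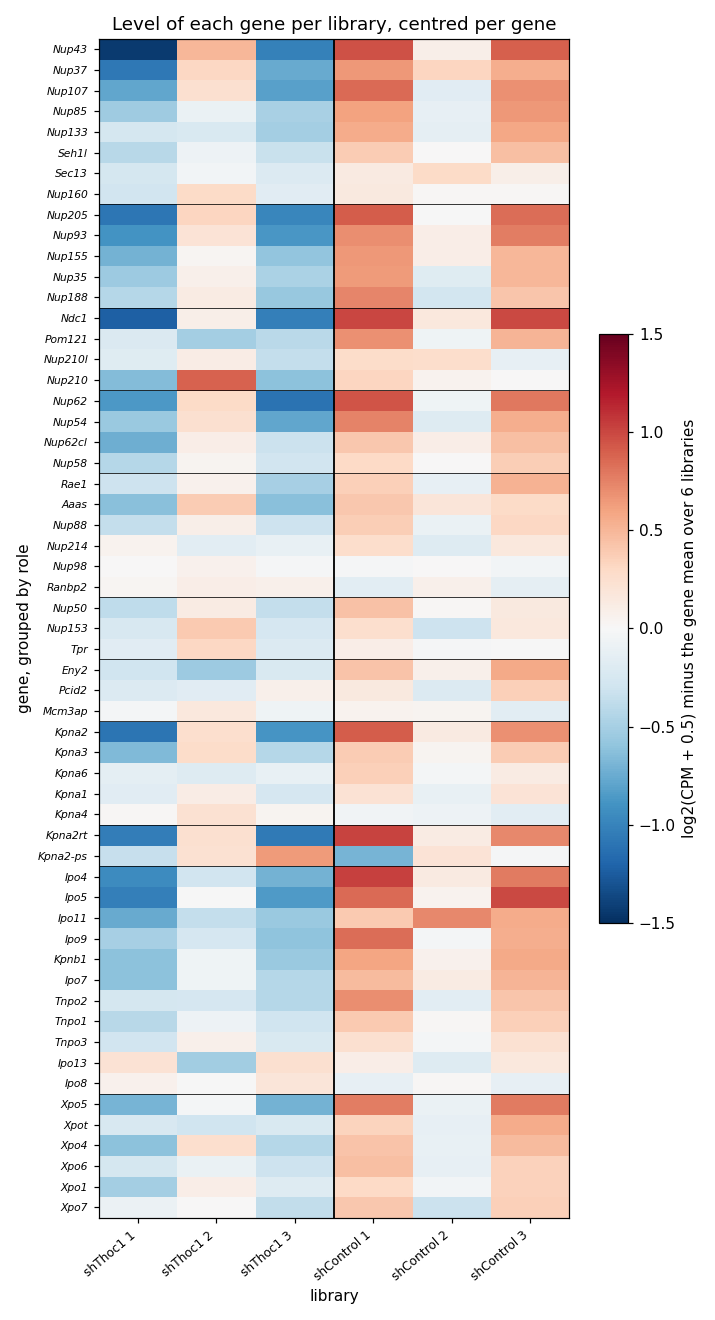
Level of each of the 57 tested genes (rows, grouped by role) in each library (columns), as log2(CPM + 0.5) minus the mean of that gene over the 6 libraries. The lowest library was shThoc1 replicate 1 for 27 genes and the highest was shControl replicate 1 for 28, and in Ipo11 the highest was shControl replicate 2.

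The 2 rings of the scaffold had fold changes below 0 throughout. All 8 genes of the outer ring, the Y-shaped complex that is set early in pore assembly, were below 0, with a median of −0.75 (−0.92 without shThoc1 replicate 2), and 4 of them did not overlap and were lower, against 10.5% of all genes. Nup85 had 39.5, 53.1 and 40.5 CPM in shThoc1 replicates 1, 2 and 3, against 86.7, 52.3 and 89.9 CPM in shControl replicates 1, 2 and 3 (log2 fold change −0.78, SE 0.27, edgeR adjusted p = 0.304). Its groups overlapped by less than 1 CPM at replicate 2 of each. Seh1l, at 75.5, 95.8 and 80.0 CPM in shThoc1 and 131, 102 and 138 CPM in shControl, did not overlap (log2 fold change −0.56, SE 0.20, edgeR adjusted p = 0.304). Nup133 did not overlap either, with 26.6, 27.4 and 22.4 CPM in shThoc1 and 47.5, 29.2 and 48.0 CPM in shControl (log2 fold change −0.71, SE 0.26, edgeR adjusted p = 0.304). Leaving out shThoc1 replicate 2 gave −0.74 for Seh1l and −0.83 for Nup133, and an edgeR adjusted p of 0.0831 for Nup85. Over the 8 genes the values ran from −1.14 (SE 0.61) for Nup43 to −0.10 (SE 0.21) for Nup160, both chosen after their values were seen, and differences between members were not tested. They ran from −2.07 to −0.36 without shThoc1 replicate 2.

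The inner ring, which lines the pore membrane, had 5 of 5 genes below 0 and a median of −0.83, or −1.16 without shThoc1 replicate 2. Nup155 had 34.9, 58.6 and 37.9 CPM in shThoc1 replicates 1, 2 and 3, against 90.2, 61.6 and 81.3 CPM in shControl replicates 1, 2 and 3, without overlap (log2 fold change −0.83, SE 0.27, edgeR adjusted p = 0.304). Nup93, the linker of the ring, had 24.5, 53.2 and 25.0 CPM in shThoc1 and 75.1, 49.4 and 79.1 CPM in shControl (log2 fold change −0.99, SE 0.38, edgeR adjusted p = 0.304). Nup205 had 32.0, 85.8 and 34.5 CPM in shThoc1 and 129, 68.0 and 122 CPM in shControl (log2 fold change −1.07, SE 0.47, edgeR adjusted p = 0.323). In Nup93 and Nup205 the replicate 2 libraries of both groups sat between the low shThoc1 and the high shControl pair, with the shThoc1 one above. Without shThoc1 replicate 2 the log2 fold changes of Nup155, Nup93 and Nup205 were −1.16, −1.52 and −1.74, none past the threshold (edgeR adjusted p = 0.0544, 0.0530 and 0.0551).

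Among the membrane nucleoporins, Ndc1, which anchors the pore in the envelope, had the most negative value of all members with all 6 libraries. It had 14.9, 37.9 and 17.2 CPM in shThoc1 replicates 1, 2 and 3, against 71.9, 39.6 and 71.3 CPM in shControl replicates 1, 2 and 3, a log2 fold change of −1.39 (SE 0.45, edgeR adjusted p = 0.304). The groups did not overlap, with shThoc1 replicate 2 just under shControl replicate 2. The value was −1.99 without shThoc1 replicate 2 (edgeR adjusted p = 0.0530), where Nup43 was lower still at −2.07. Pom121, another membrane anchor, had 34.5, 28.2 and 30.2 CPM in shThoc1 and 64.8, 38.4 and 57.3 CPM in shControl (log2 fold change −0.79, SE 0.25, edgeR adjusted p = 0.304). Its lowest library was shThoc1 replicate 2, and its value was −0.79 without that library too. Nup210, a membrane nucleoporin chosen after its values were seen, was at 32.7, 95.5 and 33.6 CPM in shThoc1 and 64.8, 53.7 and 51.9 CPM in shControl. Its log2 fold change was −0.07 with all libraries and −0.84 without shThoc1 replicate 2 (edgeR adjusted p = 0.0616), the library where T cell markers summed to 1283 CPM. Whether these cells gave its level there was not tested.

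The central channel genes encode repeat nucleoporins that form the permeability barrier, and all 4 were below 0, with a median of −0.71. Nup62 had 12.9, 29.4 and 10.9 CPM in shThoc1 replicates 1, 2 and 3, against 46.6, 22.9 and 42.0 CPM in shControl replicates 1, 2 and 3. Its partner Nup54 had 24.7, 43.3 and 21.0 CPM in shThoc1 and 61.4, 31.8 and 53.3 CPM in shControl. Nup58, the other partner, had 68.6, 95.0 and 76.0 CPM in shThoc1 and 114, 92.8 and 120 CPM in shControl. In all 3 the groups overlapped, with shThoc1 replicate 2 above shControl replicate 2. The log2 fold changes of Nup62, Nup54 and Nup58 were −1.07 (SE 0.48), −0.72 (SE 0.38) and −0.45 (SE 0.20), with edgeR adjusted p of 0.325, 0.370 and 0.324. Without shThoc1 replicate 2 they were −1.71, −1.16 and −0.66.

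Export cargo is released at the cytoplasmic face of the pore. Of its 6 genes 4 were below 0, with a median of −0.28. None was separated between the groups, where 10.5% of all genes were lower and 11.1% higher without overlap. Ranbp2, a large filament nucleoporin that binds Ran, had 178, 187 and 184 CPM in shThoc1 replicates 1, 2 and 3, against 157, 184 and 158 CPM in shControl replicates 1, 2 and 3 (log2 fold change 0.14, SE 0.16, edgeR adjusted p = 0.655). Rae1, an mRNA export factor that binds Nup98, had 31.4, 40.9 and 27.7 CPM in shThoc1 and 50.3, 35.9 and 56.3 CPM in shControl (log2 fold change −0.51, SE 0.26, edgeR adjusted p = 0.351). Nup98 itself, chosen after its values were seen, lay between 61.9 and 66.7 CPM in all 6 libraries, with a log2 fold change of 0.03 (SE 0.14) that was −0.06 without shThoc1 replicate 2. Nup88 was at −0.40 (SE 0.22) and Aaas, which Ndc1 holds at the pore, at −0.51 (SE 0.34), with edgeR adjusted p of 0.382 and 0.449. Leaving out shThoc1 replicate 2 gave 0.06 for Ranbp2, −0.75 for Rae1, −0.62 for Nup88 and −1.01 for Aaas.

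The nuclear basket, on the inner side of the pore, gave fold changes whose size and sign depended on single libraries in 2 of its 3 tested genes. Tpr, its main filament, had 126, 176 and 123 CPM in shThoc1 replicates 1, 2 and 3, against 152, 141 and 141 CPM in shControl replicates 1, 2 and 3, and Nup153 had 98.1, 153 and 97.5 CPM against 138, 94.1 and 130 CPM in the same order of groups. The shThoc1 libraries spanned the controls in Tpr, with replicate 2 the highest of the 6. The log2 fold changes of Tpr and Nup153 were −0.03 (SE 0.20) and −0.06 (SE 0.26), and their sign turns in some alternatives: under upper quartile scaling Tpr was at 0.00, and without shThoc1 replicate 1 both were at 0.09. Leaving out shThoc1 replicate 2 moved them the other way, to −0.28 (SE 0.14) for Tpr and −0.37 (SE 0.21) for Nup153. Nup50, a mobile basket protein that helps recycle importins, was at 49.3, 70.2 and 50.2 CPM in shThoc1 and 87.7, 65.3 and 71.2 CPM in shControl (log2 fold change −0.40, SE 0.22, edgeR adjusted p = 0.382, and −0.65 without shThoc1 replicate 2).

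TREX-2 docks at the basket and couples transcription to mRNA export. Eny2, its small subunit that is shared with the SAGA deubiquitinase module, had 81.5, 68.4 and 85.4 CPM in shThoc1 replicates 1, 2 and 3, against 134, 106 and 149 CPM in shControl replicates 1, 2 and 3. All shThoc1 libraries were below all controls, and shThoc1 replicate 2 was the lowest of the 6. The log2 fold change was −0.73 (SE 0.20, edgeR adjusted p = 0.304), and −0.70 without shThoc1 replicate 2, and the authors' deposited table gives an adjusted p of 0.0384. The scaffold Mcm3ap had 50.2, 56.8 and 48.6 CPM in shThoc1 and 53.1, 52.5 and 45.7 CPM in shControl. Its log2 fold change was 0.04 (SE 0.16, edgeR adjusted p = 0.902), and it turned to −0.10 without shThoc1 replicate 2. Pcid2 was at −0.21 (SE 0.21, edgeR adjusted p = 0.603), or −0.24 without shThoc1 replicate 2.

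Genes that work with these transport factors but lie outside the symbol rule were taken from 2 lists. All 9 genes of the Ran cycle and its receptors were below 0, with a median of −1.26, and 0 were called by edgeR. At an unadjusted p under 0.05 there were 7 lower and 0 higher, against 9.24% and 6.93% of all genes, and 3 were lower without overlap, against 10.5%. When shThoc1 replicate 2 was left out the median of the 9 was −1.92, and 2 of them were called lower, against 0.933% of all genes. Ran had 169, 426 and 215 CPM in shThoc1 replicates 1, 2 and 3, against 634, 497 and 736 CPM in shControl replicates 1, 2 and 3, without overlap (log2 fold change −1.20, SE 0.40, edgeR adjusted p = 0.304). Ran was 1 of the 2 genes called without shThoc1 replicate 2, at −1.76 (SE 0.26, edgeR adjusted p = 0.0488), and Ranbp17, a relative of the exportins chosen after its values were seen, was the other, at −2.39 (SE 0.35, edgeR adjusted p = 0.0488). Rangap1, which switches Ran off in the cytoplasm, had 54.1, 90.0 and 55.4 CPM in shThoc1 and 187, 95.9 and 154 CPM in shControl, without overlap (log2 fold change −1.13, SE 0.34, edgeR adjusted p = 0.304). Rcc1, which charges Ran with GTP on chromatin, was at 32.1% of the control level, with overlap (log2 fold change −1.64, SE 0.53, edgeR adjusted p = 0.304). Cse1l, the exportin that returns importin alpha, was at 61.8, 111 and 62.0 CPM in shThoc1 and 119, 83.2 and 119 CPM in shControl (log2 fold change −0.45, SE 0.30, edgeR adjusted p = 0.453). Without shThoc1 replicate 2, Rangap1, Rcc1 and Cse1l were at −1.47, −2.31 and −0.85, none past the threshold (edgeR adjusted p = 0.0625, 0.0559 and 0.0728). The list had a median of 5.38, 6.42 and 5.54 log2(CPM + 0.5) in shThoc1 and 6.90, 6.39 and 6.90 in shControl, with shThoc1 replicates 1 and 3 lowest and shControl replicates 1 and 3 highest, as on the dividing-cell lists.

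Of 22 other pore, envelope and mRNA export genes, 16 were below 0 and 6 above, with a median of −0.22 and 0 called by edgeR. At an unadjusted p under 0.05 there were 5 lower and 0 higher, against 9.24% and 6.93% of all genes. The median was −0.44 without shThoc1 replicate 2, with 0 called. The lowest p-values were those of Banf1 and Lmnb2. Banf1, which bridges chromatin and the envelope, had 42.1, 81.6 and 54.4 CPM in shThoc1 and 154, 93.5 and 173 CPM in shControl (log2 fold change −1.24, SE 0.35, edgeR adjusted p = 0.304). Lmnb2, a B-type lamin, had 16.0, 29.9 and 14.3 CPM in shThoc1 and 77.2, 30.3 and 56.9 CPM in shControl (log2 fold change −1.45, SE 0.45, edgeR adjusted p = 0.304). In this list 5 genes were lower without overlap, against 10.5% of all genes, and 1 was higher, against 11.1%. The higher one was Nxf1, the main mRNA export receptor, chosen after its values were seen. Nxf1 had 232, 281 and 244 CPM in shThoc1 and 214, 204 and 200 CPM in shControl. Its log2 fold change was 0.29 (SE 0.17, edgeR adjusted p = 0.406). Leaving out shThoc1 replicate 2 gave −1.60 for Banf1, −1.92 for Lmnb2 and 0.14 for Nxf1, none past the threshold (edgeR adjusted p = 0.0585, 0.0664 and 0.541).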

How the data were processed

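The build named in the submitters' processing notes is GRCm39. How reads were aligned and counted, and whether by strand, is not given in the sources used here. Reads of overlapping or antisense genes can therefore not be separated. The authors deposited raw counts per gene and library for 19639 genes. Beside them the deposited table holds a mean normalized signal (not used), a log2 fold change with its standard error, a test score (not used), a p-value and an adjusted p-value under DESeq2's column names, per the file headers. Their sign is shThoc1 over shControl, as checked on 3008 genes.

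Groups come from the labels, and replicate numbers follow record order. All pairs of libraries differed beyond counting error (chi-square per degree of freedom 20.4 or more). In R 4.3.3, edgeR 4.0.16 (quasi-likelihood, robust, TMM) was fitted to the whole table after filterByExpr. P-values were adjusted by Benjamini-Hochberg over 15287 genes, with 0.05 as the threshold of a call. CPM use TMM-scaled library sizes. The code was tested on simulated data. The alternatives were other scalings and filters, DESeq2 1.42.0, limma 3.58.1 voom with sample quality weights, leaving out each library, and summing shThoc1 replicates 2 and 3, whose titles share their first number.

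The members and lists were chosen with earlier results of these data known. Genes named by rule are, per role, the 3 with the smallest p and the highest one above 0, the genes with the highest and the lowest mean CPM, the untested ones, Ran, Cse1l and the 2 with the smallest p of each further list, and Thoc1.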

Additional observations from a re-analysis of the deposited data

How the results depend on the processing

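No gene of the table was called by edgeR under any scaling, filter or summing that was tried. DESeq2 called 929 genes over the table and 4 of the 57 transport genes. With limma voom and sample quality weights, which gave shThoc1 replicate 2 a weight of 0.139 and the others 0.359 to 4.42, 6817 genes were called. Of the 57, 43 were then called, all lower, where 24.2% of all genes were called lower, and their median was −0.79. Leaving out each library in turn gave 0 to 258 called genes and 0 to 1 called transport genes, with a median of −0.77 to −0.43. The call of Ipo11 came without shThoc1 replicate 2. The count of transport genes lower at an unadjusted p under 0.05 was 19 with all libraries, against 9.24% of all genes. It was 3 to 40 when each was left out, and 31 with shThoc1 replicates 2 and 3 summed. The 40 came without shThoc1 replicate 2, where the share over all genes was 21.2%. That share was not computed for the other fits, so whether their counts are particular to these genes was not tested. Signs turned for genes near 0. Leaving out each library gave −0.28 to 0.11 for Tpr, −0.37 to 0.10 for Nup153 and −0.10 to 0.12 for Mcm3ap. Tpr was at 0.00 with upper quartile scaling, 0.09 without shThoc1 replicate 1 and 0.11 without shThoc1 replicate 3, and Nup153 at 0.09 and 0.10 without these 2 libraries. Mcm3ap was at −0.02 with quality weights, −0.10 without shThoc1 replicate 2, −0.03 without shControl replicate 3 and −0.04 with shThoc1 replicates 2 and 3 summed. The cause was not tested.

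No paired analysis was possible because the replicate numbers follow the order of the records and the labels pair no library of one group with one of the other. The spread between libraries limits these comparisons: the common biological coefficient of variation was 0.480. Counts of the tested members ran from 7 to 7286 per library, so depth limits mainly Kpna2-ps, Nup210l and Nup62cl.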
